A study of Homo sapiens with 6 samples.

Results

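Chromosome 19 zinc finger genes were followed in MDA-MB-231 cells with and without a DAXX knockdown. The members are the genes with a symbol of ZNF and a number, with at most 1 letter after it, that a chromosome 19 transcript cluster of the array carried as its only symbol. A transcript cluster is the array's unit for 1 transcribed locus, and where a gene had more than 1, the cluster with the highest mean over the 6 arrays was used. There were 242 members among the 22465 genes with 1 symbol. RefSeq listed 230 of them as protein-coding and 8 as transcribed pseudogenes, and 4 could not be matched to it by gene ID. The rule reads the annotation and, for genes with several clusters, the mean signal, but not the difference between groups. No test set the members against other genes.

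The cells are an established line from a human breast cancer of the triple-negative type. In both groups cells were transduced with lentivirus and kept as stable, puromycin-selected lines, with a scrambled short hairpin RNA in shControl and with a hairpin against the DAXX coding sequence, driven by the H1 promoter, in shDAXX. Cells were cultured for 24 h, and 200 ng of RNA per sample went onto a 1-colour human transcriptome array, with 3 arrays per group that the submitters describe as biological replicates. A single DAXX hairpin was used. Effects of DAXX loss, of this hairpin and of any other difference between the selected lines cannot be told apart. The sample titles do not say whether the replicates came from separate transductions, and the labels do not say whether the medium held serum.

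Most chromosome 19 ZNF genes encode C2H2 zinc finger proteins, and many carry a KRAB domain next to the fingers. The fingers bind DNA, often within retroelements, and the KRAB domain recruits TRIM28, which brings in the H3K9 methyltransferase SETDB1. DAXX is a histone chaperone that, with ATRX, deposits the variant H3.3 at such silenced chromatin. The genes lie in large tandem clusters of related copies, and the bodies of many of them are themselves marked by H3K9me3 and bound by ATRX, TRIM28 and ZNF274.

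The knockdown was visible at DAXX itself. Its log2 signal was 7.49, 7.48 and 7.43 in shControl and 6.69, 6.67 and 6.61 in shDAXX, with no overlap. DAXX fell by 0.81 on the log2 scale (SE 0.060, limma adjusted p = 0.000489), or 1.753-fold. Medians over all transcript clusters lay between 4.91 and 5.02, and pairs of arrays correlated at 0.9959 to 0.9965 inside a group and at 0.9907 to 0.9922 across the groups. The line's own markers VIM, CD44 and EGFR averaged 16.010, 12.963 and 12.937 in shControl, and ESR1, PGR and CDH1, which are low in this line, averaged 4.530, 4.040 and 4.753. EPCAM, listed with these low markers, was higher at 7.983. CD44 rose by 0.39 in shDAXX (limma adjusted p = 0.0130). Of 8 markers of leukocytes, fibroblasts and endothelium, group means lay between 4.367 and 6.353. PTPRC fell by 0.29 (limma adjusted p = 0.0268), CDH5 rose by 0.37 (limma adjusted p = 0.0366), and the other 6 did not pass. In bulk RNA, fewer cells expressing a gene and less RNA per cell cannot be told apart.

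The chromosome 19 ZNF genes stayed near their control level as a group, and 8 of the 242 passed the test. Called here means a limma p under 0.05 after Benjamini-Hochberg adjustment over all 22465 genes. ZNF625, ZNF844, ZNF542P, ZNF480, ZNF440 and ZNF823 rose, and ZNF699 and ZNF83 fell. The 8 calls are 3.31% of the members, where 9.90% of all genes tested were called. Rises made up 2.48% of members against 4.30% of all genes, and falls 0.826% against 5.60%. Scaling moved this split. After quantile normalization 11 members and 1427 of all genes rose, and 2 and 1108 fell, and with equal array medians 2 members and 617 of all genes rose, and 2 and 1078 fell. Without adjustment 36 members (14.9%) and 5310 of all genes (23.6%) had a p under 0.05. In 55 members (22.7%) the 3 arrays of one group did not overlap those of the other, 33 of them higher in shDAXX and 22 lower, and over all genes this held for 28.7%. The shares of members were thus below the background by each of these counts, as a description without a test.

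The size of the members' differences was small throughout. Their median log2 fold change was -0.003, beside 0.007 over all genes tested. Fold changes were above 0 in 118 members, below 0 in 122 and at 0 in 2. The central 90% of members lay between -0.23 and 0.24, and that of all genes between -0.42 and 0.36. No member differed by more than 1.5-fold, whereas 884 genes (3.94%) of the whole table did. For 237 members (97.9%) the 95% confidence interval of the fold change lay wholly within 1.5-fold in either direction, and over all genes this was 82.2%. The 5 members whose interval reached further were ZNF625, ZNF542P, ZNF493, ZNF699 and ZNF404. ZNF404 had the widest scatter of these, with 5.70, 5.43 and 5.04 in shControl and 4.44, 5.24 and 5.63 in shDAXX. The median residual SD was 0.102 for members and 0.108 over all genes. At like signal it was 0.094 for members against 0.135 for all genes below 5, and 0.111 for both between 5 and 7. It was 0.103 against 0.096 between 7 and 9, and 0.087 against 0.080 at 9 and above. RMA compresses differences of dim signals, and related ZNF genes can share probes, so a true change could exceed these values.

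**Figure D1:**
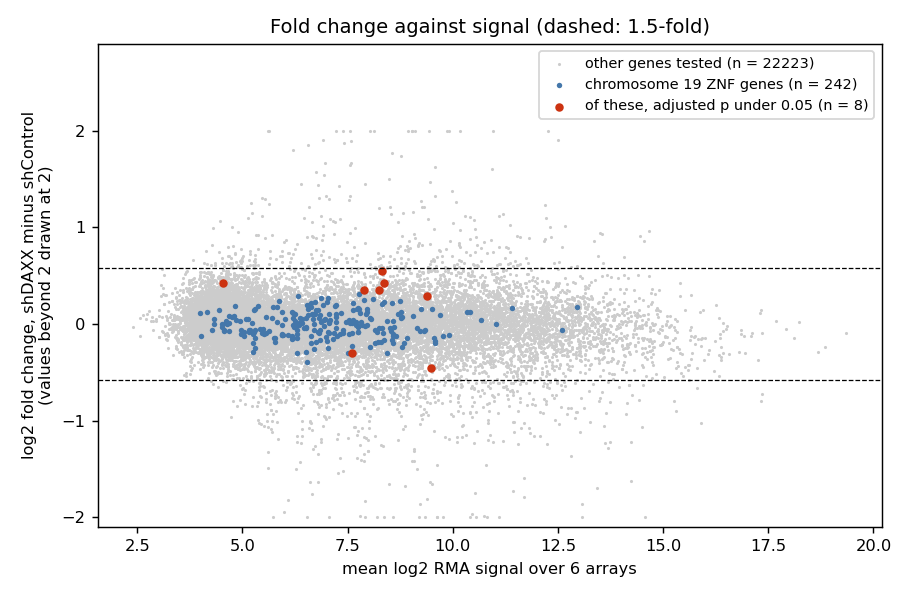
Log2 fold change (shDAXX minus shControl, y axis) against the mean log2 RMA signal over 6 arrays (x axis), with 1 point per gene; grey points are the other genes tested, blue points the chromosome 19 ZNF genes and red points the 8 of them with a limma adjusted p under 0.05. The members lie between the dashed lines at 1.5-fold, and values beyond 2 are drawn at 2.

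Signal strength bears on how often a gene is called, so the members were also counted by signal. Their median signal was 6.898, above the 5.72 of all genes, and 219 members (90.5%) were above the median transcript cluster at 4.957. A signal depends on a cluster's own probes, so it ranks clusters only roughly by expression. Below a signal of 5, 1 of 25 members was called against 1.18% of all genes. Between 5 and 7 it was 0 of 101 members against 7.54%, and between 7 and 9 it was 5 of 94 (5.32%) against 16.9%. At 9 and above it was 2 of 22 (9.09%) against 23.2%. In the 3 brighter ranges the share of members called was therefore below that of all genes in the same range. This was not particular to the members. Other chromosome 19 genes were called at 3.35%, 9.14% and 15.7% in these ranges. For ZNF genes on other chromosomes the shares were 1.71%, 6.76% and 21.4%. Both groups were thus also below all genes in each of these ranges. In the brightest range the median size of the log2 fold change was 0.12 for members and 0.17 for all genes.

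Other genes of the same chromosome and ZNF genes elsewhere give the nearest comparison. Among 1226 other chromosome 19 genes, 25 rose and 44 fell (5.63% called), and 26 differed by more than 1.5-fold. Among 260 ZNF genes on other chromosomes, 5 rose and 9 fell (5.38% called), with a median of 0.020 and 2 past 1.5-fold. Of 14 chromosome 19 genes named ZFP, ZSCAN, ZIM, ZIK or ZKSCAN, which are zinc finger genes under other symbols, 1 fell. Rises made up 2.04% of other chromosome 19 genes and 1.92% of ZNF genes elsewhere, against 2.48% of members. In the same order, groups did not overlap in 19.9% and 25.4%, against 22.7% of members. A p under 0.05 without adjustment was found in 16.1% and 20.4%, against 14.9%. The median size of the log2 fold change was 0.10 in both and 0.103 in members. The differences between these groups of genes were not tested.

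ZNF625 had the largest rise of any member. Its log2 signal was 7.95, 8.14 and 8.06 in shControl and 8.51, 8.54 and 8.74 in shDAXX. Every shDAXX array was above every shControl array, and the rise was 0.55 (SE 0.088, limma adjusted p = 0.0110), or 1.461-fold. ZNF844 read 8.18, 8.14 and 8.15 in shControl and 8.62, 8.55 and 8.57 in shDAXX. Its arrays were tightly spaced within each group, and it rose by 0.42 (SE 0.058, limma adjusted p = 0.00574), or 1.341-fold. Both are C2H2 zinc finger genes of the same tandem cluster on the short arm. They were the only members called in all 6 fits that left out 1 array, with adjusted p of 0.0267 to 0.0430 for ZNF625 and 0.0230 to 0.0269 for ZNF844.

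ZNF440 and ZNF823 lie in the same cluster. ZNF440 read 7.64, 7.78 and 7.73 in shControl and 8.04, 8.16 and 8.0 in shDAXX. ZNF823 read 9.14, 9.30 and 9.29 in shControl and 9.51, 9.53 and 9.56 in shDAXX. The groups did not overlap for either gene. ZNF440 rose by 0.35 (SE 0.073, limma adjusted p = 0.0291) and ZNF823 by 0.29 (SE 0.069, limma adjusted p = 0.0442). Neither call held when any 1 array was left out, and the adjusted p then ran from 0.0568 to 0.0951 for ZNF440 and from 0.0771 to 0.130 for ZNF823.

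The other rises were in clusters of the long arm. ZNF480, which lies in the same cluster as ZNF83, read 8.11, 8.09 and 8.0 in shControl and 8.55, 8.28 and 8.44 in shDAXX. It rose by 0.36 (SE 0.085, limma adjusted p = 0.0452). ZNF542P, a transcribed pseudogene, read 4.19, 4.45 and 4.35 in shControl and 4.64, 4.81 and 4.81 in shDAXX. The groups did not overlap for either, although ZNF542P was below the median transcript cluster in every array. It rose by 0.42 (SE 0.091, limma adjusted p = 0.0315). With 1 array left out, ZNF480 stayed called in 1 of 6 fits (adjusted p 0.0359 to 0.129) and ZNF542P in 2 of 6 (0.0427 to 0.103).

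ZNF699, the human relative of the fly stress gene hangover, had the largest fall. It read 9.55, 9.88 and 9.72 in shControl and 9.19, 9.23 and 9.36 in shDAXX. The groups were apart, though shControl arrays spread over a wider range than those of shDAXX. ZNF699 fell by 0.46 (SE 0.099, limma adjusted p = 0.0328), or 1.372-fold. ZNF83 read 7.78, 7.82 and 7.70 in shControl and 7.50, 7.45 and 7.45 in shDAXX. The groups did not overlap, and ZNF83 fell by 0.30 (SE 0.063, limma adjusted p = 0.0291). Leaving out 1 array kept the call of ZNF699 in 1 of 6 fits (adjusted p 0.0291 to 0.104) and that of ZNF83 in 0 of 6 (0.0514 to 0.0945).

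**Figure D2:**
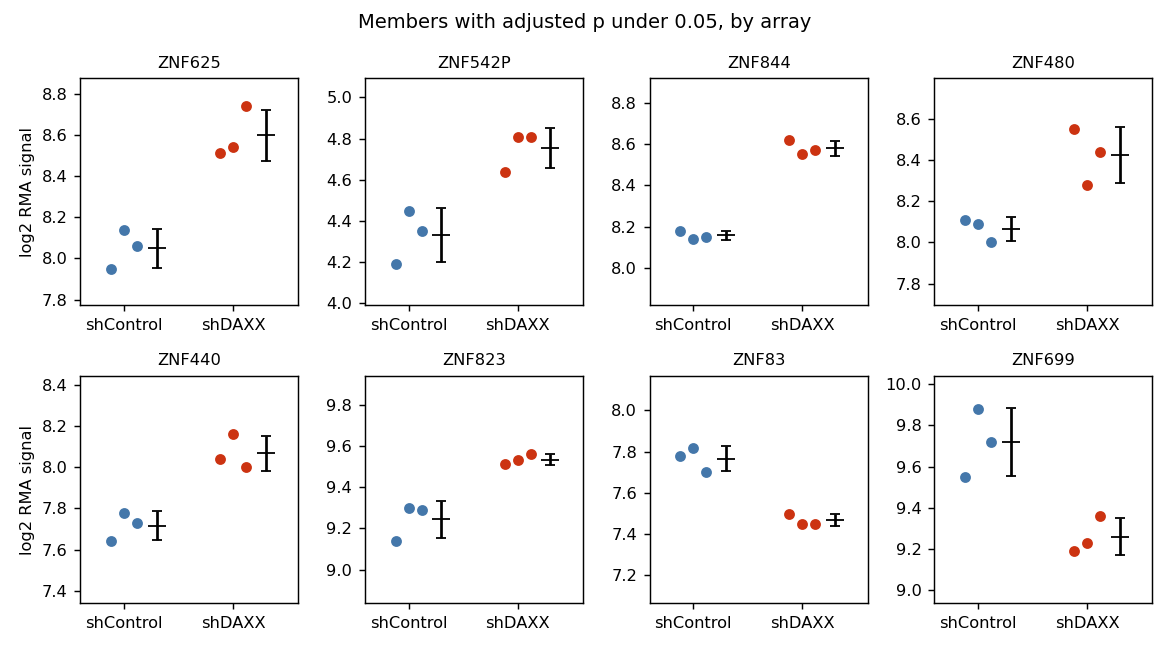
Log2 RMA signal (y axis) of the 8 called members in each array, 1 panel per gene; points are arrays, and bars beside them show the mean and SD over 3 arrays. The y axes span the same range but start at different signals, and the shControl and shDAXX points do not overlap in any panel.

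A further 9 members had an adjusted p between 0.05 and 0.10. ZNF555, with 6.78, 6.79 and 6.89 in shControl and 6.52, 6.56 and 6.61 in shDAXX, was closest, at -0.26 (limma adjusted p = 0.0536). ZNF493, with 6.56, 6.79 and 6.84 in shControl and 6.19, 6.47 and 6.34 in shDAXX, had the second most negative value of all members, at -0.40 (limma adjusted p = 0.0636). The groups did not overlap for either gene, which were chosen after their values were seen. Among them the other 7 ran from -0.30 for ZNF543 to 0.27 for ZNF283. The 8 pseudogenes had a median of 0.18, and 5 of them (62.5%) did not overlap between groups, against 28.7% of all genes. Besides ZNF542P none was called. ZNF812P, the pseudogene with the lowest value, was at -0.25 (limma adjusted p = 0.240).

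Placed in RefSeq gene order, 241 members could be ordered along the chromosome. A gene cluster was taken as a run of at least 5 members with at most 3 other protein-coding genes between neighbours. This gave 11 gene clusters with 217 members, and 25 members lay outside them. Of the 6 rises, 4 were in the third cluster, which runs from ZNF627 to ZNF791 and holds 26 members, and 0 of its members were called lower. Its median log2 fold change was 0.12, with 18 members above 0 and 8 below, and 12 of 26 did not overlap between groups. Over all genes tested 4.30% were called higher and 28.7% did not overlap. Medians of the other clusters with 19 or more members were lower. They were -0.030 for the 35 members from ZNF101 to ZNF254, 0.017 for the 25 from ZNF565 to ZNF573, -0.083 for the 19 from ZNF283 to ZNF180, -0.027 for the 38 from ZNF577 to ZNF331 and -0.028 for the 40 from ZNF264 to ZNF446. The small cluster of 5 from ZNF302 to ZNF792 had a higher median, 0.20, with no call. The 8 members from ZNF542P to ZNF835 had a median of 0.083, with 6 above 0 and 1 called higher. The remaining small clusters were at -0.14 (ZNF554 to ZNF77), -0.065 (ZNF317 to ZNF812P) and -0.062 (ZNF579 to ZNF580). The cluster from ZNF101 to ZNF254 includes ZNF91 and ZNF93, and in it 0 of 35 were called.

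**Figure D3:**
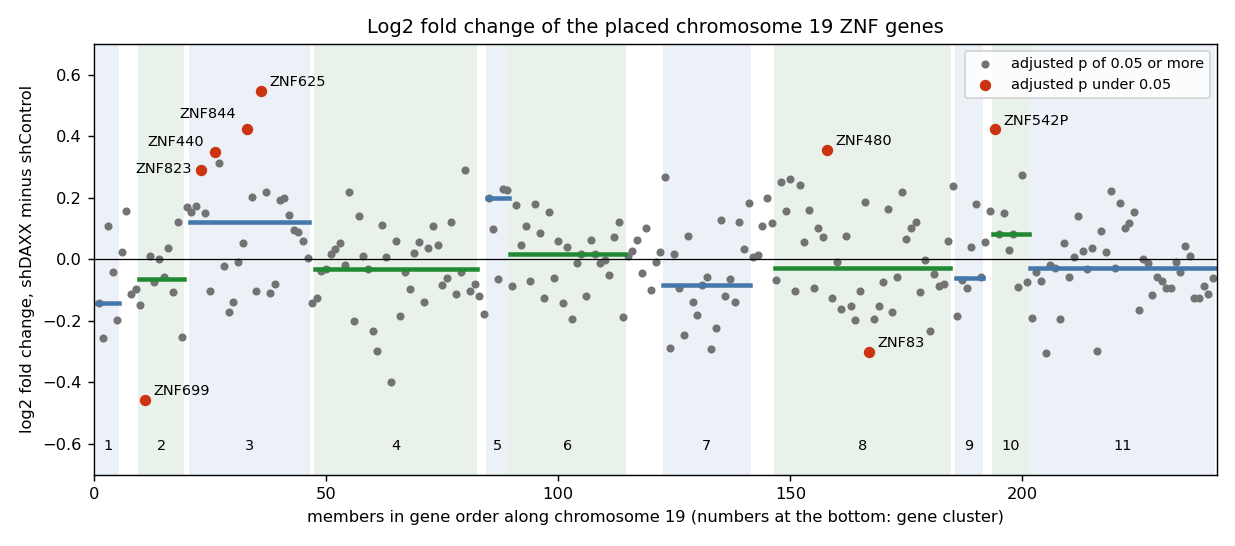
Log2 fold change (shDAXX minus shControl, y axis) of the 241 placed members in RefSeq order along chromosome 19 (x axis, rank and not distance); red points have a limma adjusted p under 0.05, shading marks the 11 gene clusters and horizontal bars their medians. The bar of gene cluster 3 lies at 0.12, and 4 of the 6 red points above 0 are in it.

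Within the third cluster the rises were not shared by all neighbours. Beside the called ZNF625, ZNF844, ZNF440 and ZNF823, ZNF439 was at 0.31 (limma adjusted p = 0.152) and ZNF136 at 0.22 (limma adjusted p = 0.0853). At the other end ZNF700 read 8.42, 8.45 and 8.45 in shControl and 8.28, 8.32 and 8.21 in shDAXX, at -0.17 (limma adjusted p = 0.147). ZNF791, the brightest member of the cluster, was at 0.003 with a 95% confidence interval of -0.15 to 0.16. The median deviation of the 26 genes from their shControl mean was 0.053, 0.008 and -0.018 in the shControl arrays and 0.048, 0.14 and 0.12 in the shDAXX arrays. By this measure 1 shDAXX array lay below the highest shControl array, so the groups overlapped. The cluster's median stayed above 0 under each scaling tried, at 0.18 after quantile normalization and 0.093 with equal array medians.

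The genes next to the third cluster were also measured. RefSeq places no other tested protein-coding gene inside it. Of the 20 nearest tested protein-coding genes before it that are not members, 0 were called, with a median of 0.013, and of the 20 after it 0 were called, with a median of 0.055. Genes of this cluster are close relatives, and whether probes of one report transcripts of another was not tested.

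**Figure D4:**
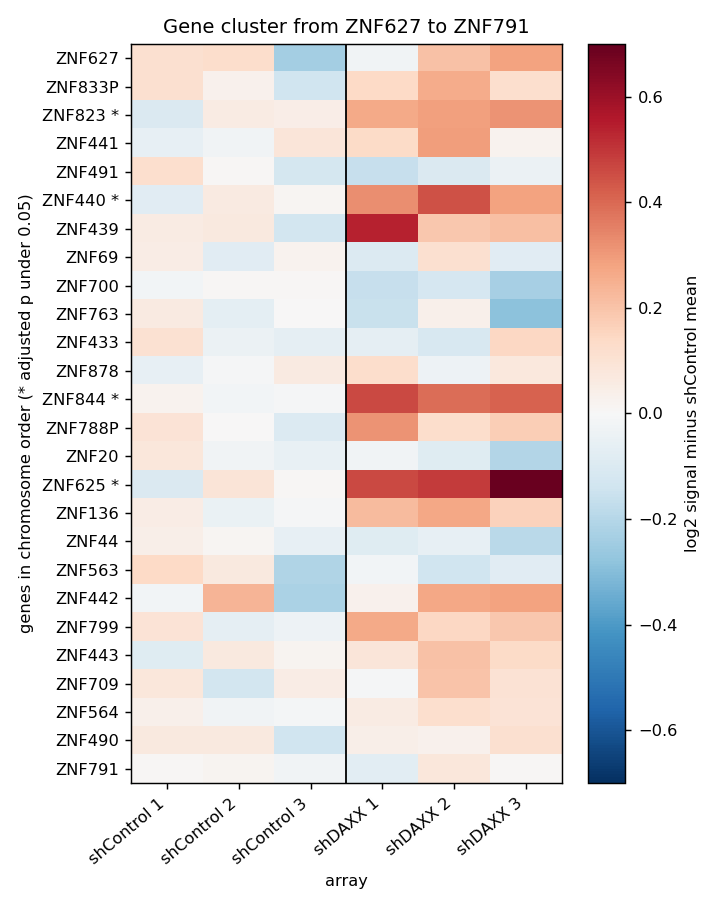
Log2 signal minus the shControl mean (colour, from blue below to red above) for the 26 members from ZNF627 to ZNF791 in chromosome order (rows) and the 6 arrays (columns); asterisks mark a limma adjusted p under 0.05. Red rows in all 3 shDAXX arrays, such as ZNF844 and ZNF625, stand beside rows that stay pale or blue, such as ZNF700.

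Promoter sequence was compared because the 4 rising neighbours share parts of it. RefSeq promoter windows on GRCh38.p14, from 250 bases before to 50 after the gene start, were at hand for 203 members, among them 6 of the called members (not ZNF480 or ZNF542P). The 150 bases before the start are shown for these 6, each 5′ to 3′ on the strand of the gene, with capitals for CCAATCAG and GTCACTCA on either strand. CCAATCAG contains CCAAT, the core of the CCAAT box that the factor NF-Y binds. The first 4 are the rising genes of the third cluster, at chr19:12156735-12156884 (minus strand), chr19:12064581-12064730 (plus), chr19:11814123-11814272 (plus) and chr19:11738947-11739096 (minus).
ZNF625: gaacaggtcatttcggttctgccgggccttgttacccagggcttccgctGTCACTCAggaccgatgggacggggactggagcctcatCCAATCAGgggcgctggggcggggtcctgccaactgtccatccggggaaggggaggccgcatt
ZNF844: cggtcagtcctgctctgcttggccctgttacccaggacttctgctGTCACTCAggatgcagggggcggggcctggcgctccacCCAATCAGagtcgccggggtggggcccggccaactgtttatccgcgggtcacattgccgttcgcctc
ZNF440: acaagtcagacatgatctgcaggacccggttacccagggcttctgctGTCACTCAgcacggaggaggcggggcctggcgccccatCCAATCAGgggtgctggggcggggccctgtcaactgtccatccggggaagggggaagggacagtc
ZNF823: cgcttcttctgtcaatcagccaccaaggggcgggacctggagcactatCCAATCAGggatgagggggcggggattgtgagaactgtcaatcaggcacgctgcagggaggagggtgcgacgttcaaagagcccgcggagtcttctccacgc
The genes that fell, at chr19:9309839-9309988 (minus) and chr19:52690497-52690646 (minus), have neither motif in this stretch.
ZNF699: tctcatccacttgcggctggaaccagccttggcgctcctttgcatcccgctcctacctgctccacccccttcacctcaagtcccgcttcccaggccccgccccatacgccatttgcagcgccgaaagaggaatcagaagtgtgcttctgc
ZNF83: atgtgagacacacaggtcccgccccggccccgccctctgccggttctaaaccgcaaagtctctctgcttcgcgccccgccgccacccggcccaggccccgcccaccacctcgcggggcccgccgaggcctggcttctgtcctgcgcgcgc
In ZNF625, ZNF844 and ZNF440 the 2 motifs keep nearly the same place, with CCAATCAG 63, 67 and 65 bases before the start and GTCACTCA 101, 105 and 103 bases before it. ZNF823 has CCAATCAG 102 bases before its start and no GTCACTCA.

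Both motifs were found in called and uncalled members alike. They were picked after the sequences and fold changes were seen and were searched on both strands. CCAATCAG was present in 54 of 203 member windows (26.6%), 1136 of all 27305 promoter windows (4.16%), 51 of 899 windows of other chromosome 19 genes (5.67%) and 24 of 199 windows of ZNF genes elsewhere (12.1%). In the third cluster 21 of 23 windows held it, that of ZNF700 included. In the cluster from ZNF101 to ZNF254 all 26 windows did, and 0 of those 26 genes were called, with a median log2 fold change of -0.033. Outside the third cluster the 33 members with the motif had 0 calls and a median of -0.040. GTCACTCA was present in 37 member windows (18.2%) against 335 of all windows (1.23%), and in 14 of 23 in the third cluster. It was in 12 of 899 windows of other chromosome 19 genes (1.33%) and 16 of 199 of ZNF genes elsewhere (8.04%). The 37 members with GTCACTCA had 3 rises, 0 falls and a median log2 fold change of -0.010. The 166 without it had 1 rise, 2 falls and a median of -0.007. Over all genes tested 4.30% rose and 5.60% fell. Within the third cluster, members with GTCACTCA ran from -0.17 for ZNF700 to 0.55 for ZNF625, and ZNF439, without it, was at 0.31.

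Other known motifs were spread differently over the members. CCGGAAG, a core that ETS factors bind, was present in 90 member windows (44.3%) and in 10.7% of all windows. It was in 35.2% of windows of ZNF genes elsewhere, 13.1% of those of other chromosome 19 genes and 1 of 23 of the third cluster. The 90 members with it had 0 calls and a median of -0.035, and the 113 without it had 4 rises, 2 falls and a median of 0.010. All 4 rises are in the third cluster, where the core was rare. Calls made up 3.31% of members and 9.90% of all genes tested. TCACNCCAC, a form of the sterol response element that SREBP proteins bind, was present in 8 member windows (3.94%) against 1.15% of all windows. Other chromosome 19 genes had it in 0.89% of windows and ZNF genes elsewhere in 0 of 199. None of those 8 members had a fold change above 0, and their median was -0.095. Of the 195 members without it, 97 were above 0, with a median of 0.0. Among the 8 with it the groups did not overlap in 1, where this held for 28.7% of all genes. ZNF83 was the 1 of these 8 called, where 9.90% of all genes tested were called. GCGCATGC, the NRF1 motif, was in 8 member windows (3.94%) against 3.27% of all windows. Other chromosome 19 genes had it in 5.78% and ZNF genes elsewhere in 7.04%. The 8 members with it had 0 rises, 1 fall and a median of 0.048. AAGATGGC, a YY1 motif, was in 14 member windows (6.90%) against 3.03% of all windows. Other chromosome 19 genes had it in 5.9% and ZNF genes elsewhere in 2.51%. The 14 members with it had 0 rises, 0 falls and a median of 0.038. Member windows were rich in CpG, with a median of 20 CpG per 300 bases against 14 over all windows. The 6 called members with a window had a median of 17.5. CpG was not counted separately for other chromosome 19 genes or for ZNF genes elsewhere.

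Members with a described role were read as a group of 27 names, of which 26 were measured and ZNF587 had no cluster of its own. Of the 26, 1 rose (ZNF480) and 0 fell, where 4.30% of all genes rose and 5.60% fell. Without adjustment 3 had a p under 0.05, against 23.6% of all genes. The median log2 fold change was 0.025, with a range of -0.11 to 0.36. ZNF91, which represses SVA elements, read 9.85, 10.04 and 9.98 in shControl and 9.84, 9.82 and 9.87 in shDAXX. The groups overlapped, at -0.11 with a 95% confidence interval of -0.28 to 0.054 (limma adjusted p = 0.398). ZNF93, which binds LINE-1 elements, was at 0.033 with an interval of -0.27 to 0.33. ZNF417, which binds endogenous retroviruses of the HERV-K family, was at 0.000 with an interval of -0.18 to 0.18. ZNF649, also a LINE-1 binder, was at 0.25 with an interval of 0.016 to 0.49 (limma adjusted p = 0.185), and its groups did not overlap. ZNF765, another LINE-1 binder, was at -0.087 with an interval of -0.29 to 0.12 (limma adjusted p = 0.623). None of these 5 retroelement binders passed the test.

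ZNF274, which brings SETDB1 to the 3′ ends of ZNF genes, read 7.25, 7.18 and 6.87 in shControl and 7.04, 7.09 and 6.89 in shDAXX. Its arrays overlapped, at -0.093 (95% confidence interval -0.36 to 0.18, limma adjusted p = 0.694). ZNF331, an imprinted gene, was at 0.060 (limma adjusted p = 0.656). ZNF132, ZNF382, ZNF471, ZNF582 and ZNF671, whose promoters are often methylated in carcinomas, ranged from -0.087 for ZNF132 to 0.18 for ZNF671. Their signals were low, between 4.54 and 5.76 in every array, and none passed the test. ZNF224, a KRAB repressor of aldolase A, was at -0.057. ZNF71 was at 0.27 with an interval of 0.073 to 0.47 (limma adjusted p = 0.10), and its groups did not overlap.

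The members with the highest signals did not pass the test either. ZNF146, which has zinc fingers but no KRAB domain, read 12.76, 12.95 and 12.87 in shControl and 13.08, 12.99 and 13.04 in shDAXX. Its groups did not overlap, at 0.18 (limma adjusted p = 0.198). ZNF888, ZNF468, ZNF791, ZNF121 and ZNF724 followed in signal, with log2 fold changes of -0.057, 0.16, 0.003, 0.037 and 0.12. At the low end ZNF285, ZNF536 and ZNF556 averaged 4.17, 4.02 and 4.0 over the 6 arrays, at 0.12, -0.12 and 0.11. Signals this low are below the median transcript cluster, and small changes there are hard to see.

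Another list held proteins that KRAB zinc finger proteins recruit, or that write, read or keep H3K9 methylation and H3.3. Of its 34 names 26 were measured, and some names are older symbols of the same gene. Of the 26 measured, 0 rose and 4 fell, with a median of -0.053, where 4.30% of all genes rose and 5.60% fell. The 4 include DAXX, the target of the hairpin. Without adjustment 11 had a p under 0.05, against 23.6% of all genes. The list was not matched for signal, and at a signal of 9 and above 559 of 4483 genes fell. TRIM28, the KRAB co-repressor, read 13.08, 13.12 and 13.02 in shControl and 13.00, 13.16 and 12.87 in shDAXX. It overlapped between groups, at -0.063 (limma adjusted p = 0.735). SETDB1 was at -0.030, ATRX at 0.017 and the HP1 protein gene CBX3 at 0.007, and none of them passed the test.

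The 4 genes of this list that fell were DAXX, ATF7IP, MORC2 and CHD4, of which MORC2 and CHD4 were chosen for mention after their values were seen. ATF7IP, the partner that stabilises SETDB1, read 13.21, 13.15 and 13.17 in shControl and 12.17, 12.31 and 12.24 in shDAXX. The groups were far apart, and ATF7IP fell by 0.94 (SE 0.065, limma adjusted p = 0.000356), or 1.914-fold. Of its 40 nearest tested protein-coding neighbours on chromosome 12, 19 fell and 0 rose, with a median of -0.41, against a median of 0.0 for the other 891 protein-coding genes of that chromosome. What part a change of this chromosome segment has in the ATF7IP value was not tested. MORC2, an ATPase that works with the HUSH silencing complex, fell by 0.36 (limma adjusted p = 0.0369), and CHD4, the NuRD remodeller, by 0.27 (limma adjusted p = 0.0392). Both calls were lost under quantile normalization, with adjusted p of 0.0564 for MORC2 and 0.161 for CHD4, and with 1 array left out MORC2 lost its call in 5 of 6 fits and CHD4 in 6 of 6.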

How the data were processed

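RNA of 3 shControl and 3 shDAXX cultures was hybridised to Affymetrix Human Transcriptome Array 2.0 chips. The authors made the deposited log2 values by RMA, that is, background correction, scaling of the arrays to each other and 1 summary value from all probes of a transcript cluster. Affymetrix Expression Console is the software in the submitters' processing notes, with no version there. ComBat is named in the study's methods for arrays of different dates. Whether the present values went through it is not given. The log base was taken from the values (1.88 to 19.52). Of 67528 transcript clusters, 23781 carried 1 symbol, 1543 several and 42204 none in the platform annotation. RefSeq (GRCh38.p14) gene IDs matched 21497 of the 23781. No source used here gives the build of the array's design, so RefSeq served for names, gene order and promoter sequences only.

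Groups and replicate numbers came from the sample titles. The groups were fitted with limma 3.58.1 in R 4.3.3 (lmFit, then eBayes, two-sided and without covariates), with Benjamini-Hochberg adjustment over 22465 genes and a threshold of 0.05. A positive log2 fold change means a higher signal in shDAXX, and its SE is the moderated one. The p-values measure the spread between 3 arrays per group, whose number limits the precision.

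The members, lists, motifs and tests were chosen with earlier results of these data known. Genes named by rule were DAXX, the called members, the 6 brightest and 3 dimmest members, the 2 genes with the smallest p in each gene cluster that held a call, and the leading genes of each list. Others were named after their values were seen or as examples of a list. The fit was repeated after filtering out dim genes, over every transcript cluster, on means of clusters per gene, after quantile normalization or with equal medians of the arrays, with a block for the replicate number, with weights per array, with trend and robust in eBayes, by the methods' t-test, and without each array in turn. Counts of zinc fingers per protein were planned and not run, since no protein sequences were at hand.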

Additional observations from a re-analysis of the deposited data

How the results depend on the processing

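The counts of called members depended on the processing. Against 6 rises and 2 falls of members and 967 and 1257 of all genes, a filter on dim genes gave 7 and 7 (over all 14888 genes left, 1274 and 1649), eBayes with trend and robust 7 and 6 (1208 and 1554), quantile normalization 11 and 2 (1427 and 1108), equal array medians 2 and 2 (617 and 1078), the methods' t-test 1 and 3 (707 and 811), and a fit of every transcript cluster 0 and 0 (537 and 903), with 24 members at an unadjusted p under 0.05 and ZNF844 at an adjusted p of 0.0558. Array weights and means of clusters gave 6 and 2 again. Leaving out any 1 of the 6 arrays, of either group, gave 2 to 3 rises and 0 to 1 falls. With the replicate number as a block there were 3 rises (ZNF542P, ZNF844 and ZNF625) and 1 fall (ZNF493), and over all genes 606 rises and 868 falls. Deviations of same-numbered arrays correlated at -0.091, 0.22 and 0.081, and only replicate 2 correlated best with its own number, so the numbers were not taken as pairs. The members' median of -0.003 became 0.034 after quantile normalization and -0.030 with equal array medians, and ran from -0.031 to 0.006 with 1 array left out, so it has no settled sign. The median of the third gene cluster ran from 0.084 to 0.18. For that median and for DAXX, ATF7IP, MORC2 and CHD4 the alternatives were added after the data were seen. DAXX and ATF7IP stayed called in every alternative. For single named members, 556 of 639 alternative values kept their direction and their side of the threshold, 56 kept their direction and lost a call, 1 gained one and 26, in 12 members near 0, changed sign. None of the 26 belonged to a called member, and their lowest adjusted p was 0.609. Quantile normalization turned ZNF224 to 0.004, ZNF43 to 0.018, ZNF580 to 0.005, ZNF8 to 0.017 and ZNF888 to 0.017, and equal array medians turned ZNF419 to -0.020, ZNF569 to -0.010, ZNF791 to -0.023 and ZNF85 to -0.017. With 1 array left out, values that crossed 0 ran from -0.085 to 0.26 for ZNF432, -0.033 to 0.070 for ZNF569, -0.038 to 0.13 for ZNF121, -0.072 to 0.068 for ZNF419, -0.033 to 0.042 for ZNF791, -0.040 to 0.045 for ZNF85, -0.098 to 0.14 for ZNF93, -0.15 to 0.058 for ZNF8, -0.11 to 0.002 for ZNF888 and -0.11 to 0.002 for ZNF43. Of the called members, ZNF844 stayed called in 14 of 15 alternatives and ZNF625 in 13 of 15, and the other 6 in 5 to 7. The cause of these shifts was not tested. Brightness limits the dim members, since 23 of 242 were not above the median transcript cluster.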

Other observations

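Several chromosome 19 ZNF genes were measured only by transcript clusters that carry more than 1 symbol, and their values cannot be given to 1 gene. There were 9 such clusters, holding 11 ZNF symbols with no cluster of their own. The cluster of ZNF177 and its readthrough transcript read 6.11, 6.21 and 6.22 in shControl and 6.07, 5.87 and 6.07 in shDAXX, and was the only one of the 9 whose groups did not overlap. The cluster shared by ZNF587 and ZNF587B, relatives of ZNF417, averaged 8.777 in shControl and 8.837 in shDAXX. The cluster shared by ZNF816 and ZNF321P averaged 7.647 and 7.42, and the cluster of ZNF846 averaged 7.61 and 7.433. A second, dimmer cluster of ZNF77 read 4.48, 5.18 and 4.56 in shControl and 4.27, 4.50 and 3.83 in shDAXX, and its groups overlapped.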
